A study of Homo sapiens with 16 samples.

Results

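Prostaglandin E2 genes were followed in LN229, an established human glioblastoma (GBM) cell line, across ischemic and regular culture and across inhibitors of p38 and MK2. The 8 genes were chosen by name, as enzymes and receptors of prostaglandin E2, with earlier results of these data known. Counts of these genes beside shares of all genes are therefore descriptions. Their values were looked up by Entrez identifier in both tables of log2 normalized CPM (the reads of a gene scaled to an adjusted size of its library). Of these 8 genes, 7 were analysed in both tables (PTGS2, PTGS1, PTGES, PTGES2, PLA2G4A, PTGER2 and PTGER4), out of 13559 genes tested in the first experiment and 14024 tested in the second. HPGD was not analysed here. A wider list of 59 genes of prostanoid metabolism, grouped by role, was counted beside them, and 36 of these were analysed in each experiment.

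The study asked how GBM cells respond to ischemia, and which part of that response depends on p38 signaling. The first experiment compared untreated LN229 cells in regular culture (10% fetal bovine serum) with untreated cells in ischemic culture, where glucose was cut to 2 mM, glutamine to 0.1 mM, serum to 1% and oxygen to about 1%. The second experiment compared DMSO, the solvent control, with the p38α inhibitor VX745 and with the MK2 inhibitor MK25, each in regular and in ischemic culture. The methods list 1 concentration for each compound, 2 µM for VX745 and 10 µM for MK25, and the time in culture before lysis is not given in the sources used here. Each of the 8 groups held 2 libraries, 16 in all, and nothing in the labels says whether the 2 came from separate cultures, so p-values measure the spread between these libraries, which may be technical. All groups are 1 unmodified cell line, and glucose, glutamine, serum and oxygen change together between the cultures and cannot be told apart.

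To make prostaglandin E2, a phospholipase frees arachidonic acid from membrane lipids, a cyclooxygenase converts it to prostaglandin H2, and a terminal synthase isomerizes that to prostaglandin E2, which leaves the cell and acts on G protein-coupled receptors. The inducible cyclooxygenase PTGS2 (COX-2) is a textbook inflammatory gene whose mRNA is short-lived, and the kinase MK2, which p38 activates, phosphorylates proteins that bind AU-rich elements in such mRNAs. In gliomas the pathway is known for its link to inflammation and edema.

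The sequence next to the 3 genes that passed the test between cultures is shown first. PTGS2 lies on chromosome 1 of GRCh38 (186671791 to 186680423, minus strand), PTGES on chromosome 9 (129738349 to 129753042, minus strand) and PTGER2 on chromosome 14 (52314312 to 52328598, plus strand). The 250 bases before each RefSeq start site (build GRCh38.p14) are printed 5′ to 3′ on the strand of the gene, with matches to a fixed set of 11 motifs in capitals. They lie at chr1:186680424-186680673, chr9:129753043-129753292 and chr14:52314062-52314311.
PTGS2: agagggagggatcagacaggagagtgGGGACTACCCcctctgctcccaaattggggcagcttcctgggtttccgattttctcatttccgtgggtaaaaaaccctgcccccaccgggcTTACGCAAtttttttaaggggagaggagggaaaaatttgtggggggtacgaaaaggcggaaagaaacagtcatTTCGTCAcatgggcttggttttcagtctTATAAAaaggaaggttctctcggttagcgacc
PTGES: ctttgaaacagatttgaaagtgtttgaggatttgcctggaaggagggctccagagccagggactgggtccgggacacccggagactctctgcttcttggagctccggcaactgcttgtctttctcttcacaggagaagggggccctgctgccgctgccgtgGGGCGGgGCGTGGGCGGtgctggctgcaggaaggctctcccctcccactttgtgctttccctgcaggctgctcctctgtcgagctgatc
PTGER2: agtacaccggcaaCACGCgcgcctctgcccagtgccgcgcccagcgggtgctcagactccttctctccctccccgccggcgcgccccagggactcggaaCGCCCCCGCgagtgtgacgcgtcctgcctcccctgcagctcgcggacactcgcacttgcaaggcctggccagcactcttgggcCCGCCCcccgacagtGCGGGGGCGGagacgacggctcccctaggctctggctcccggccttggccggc
Motifs were searched on both strands in a window of 300 bases, which adds the first 50 transcribed bases to those printed, and positions give the leftmost base of a match counted from the start site. The PTGS2 window held a TATA box (TATAAA, position −32), the variant cAMP response element TTCGTCA (−60), the C/EBP-like site TTNCGCAA (−133, as TTACGCAA), an NFkB-like site (GGGA, any base, T, any 2 bases, CC, here GGGACTACCC at −224) and, on the opposite strand, the hypoxia response core ACGTG (34 bases into the transcript). Of 35116 RefSeq promoter windows of this length, 11.5% held TATAAA, 0.988% TTCGTCA, 0.891% TTNCGCAA, 5.13% the NFkB-like site and 21.4% ACGTG. The PTGES window held none of these 5, and had the GC box GGGCGG at −89 and −78. The second overlapped a match at −82 to GCGTG, which is the second form of the hypoxia response core. The PTGER2 window held this second form, GCGTG (−237, opposite strand), and GGGCGG (−49, and −68 on the opposite strand). It also held GCGGGGGCG, a form of the EGR1 site (−53, overlapping the GC box at −49, and −151 on the opposite strand). Other forms of the EGR1 site were not searched in any of the 3 windows. The PTGES sequence above reads GCGTGGGCG from −82, which is such a form. GGGCGG is in 45.0% of all windows, GCGTG in 36.5% and GCGGGGGCG in 5.07%. The 3 remaining motifs, TGACGTCA, TGANTCA and CACGTG (the last contains ACGTG), had no match in these 3 windows. A match is a run of letters and not a shown binding site.

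The 3′ untranslated region (UTR) of PTGS2 is shown because its AU-rich elements are the sequence through which p38 and MK2 are known to act on this mRNA. Its first 30 bases (chr1:186674323-186674352, minus strand, GENCODE v44), with ATTTA in capitals, hold 3 overlapping copies of that pentamer.
PTGS2 UTR: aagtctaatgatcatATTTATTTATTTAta
The whole 3′ UTR of 2562 bases held 22 copies of ATTTA. Of 12559 genes of the second experiment with a canonical coding transcript, 3.15% had as many or more, and the median was 2. By the same count PTGER4 held 9, PTGER2 5, PLA2G4A 4, PTGS1 3, PTGES 1 and PTGES2 0.

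Between 20122017 and 37562668 reads lay on the listed genes of a library, as recovered from the steps of the unlogged values. Replicates differed by more than sampling noise in all 8 groups (chi-square per gene 3.29 to 9.40). Deposited values carry an offset of about 2 reads, so fold changes of genes with few reads come out smaller than they are. All 8 glioma and astrocyte markers were analysed, and GFAP, which defines astrocytes, reached 0.709 to 2.01 CPM. Their summed level was 5818 to 8317 CPM in ischemic and 4027 to 4582 CPM in regular libraries, most of it VIM (4379 to 6994 against 2160 to 2709 CPM). CD44 was higher in ischemic libraries within each experiment, by little in the first (816 and 836 against 812 and 801 CPM). EGFR was higher in each ischemic library (108 to 138 against 56.0 to 75.2 CPM). NES (339 to 537 CPM in ischemic against 758 to 953 CPM in regular libraries), SOX2 (8.66 to 15.2 against 48.2 to 88.9 CPM) and S100B (23.1 to 31.0 against 36.9 to 44.4 CPM) were lower in each, and GFAP and OLIG2 were lower in the first experiment and overlapped in the second. Of 6 immune markers CD68 alone was analysed (22.1 to 38.4 CPM in regular and 36.1 to 64.3 CPM in ischemic libraries), and none of 3 endothelial markers was. Of 3 neuronal markers SYT1 and SNAP25 were analysed, with a sum of 16.6 to 22.5 CPM in regular and 45.7 to 82.4 CPM in ischemic libraries. SYT1 alone was higher (41.7 to 79.2 against 12.8 to 16.8 CPM), while SNAP25 was at 2.68 to 4.45 CPM in ischemic and 3.35 to 5.63 CPM in regular libraries, and the part of these shifts in the results that follow was not tested. In bulk RNA, a change in the share of cells that express a gene and a change of its RNA per cell cannot be told apart.

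PTGS2 and PTGES rose in ischemic cells and PTGER2 fell, in both experiments, as the plot of values by library shows. PTGS2, the inducible cyclooxygenase, had log2 normalized CPM of 1.42 and 1.5 in the untreated regular libraries and of 6.77 and 6.80 in the untreated ischemic libraries (means 1.46 ± 0.06 and 6.78 ± 0.02, SD, n = 2). The cultures did not overlap and stood far outside the spread of replicates, with a log2 fold change of 5.32 (standard error, SE, 0.10, 40.0-fold, limma adjusted p = 7.65e-13). PTGES, the inducible microsomal synthase that completes prostaglandin E2, had values of 2.39 and 2.63 in regular and of 5.12 and 5.70 in ischemic libraries. Its ischemic replicates lay further apart than those of PTGS2, and the log2 fold change was 2.90 (SE 0.16, 7.47-fold, limma adjusted p = 1.31e-08). PTGER2, which encodes the cAMP-coupled receptor EP2, went the other way, with values of 1.75 and 0.90 in regular and of −1.43 and −1.45 in ischemic libraries. Its log2 fold change was −2.76 (SE 0.35, limma adjusted p = 1.67e-05).

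**Figure D1:**
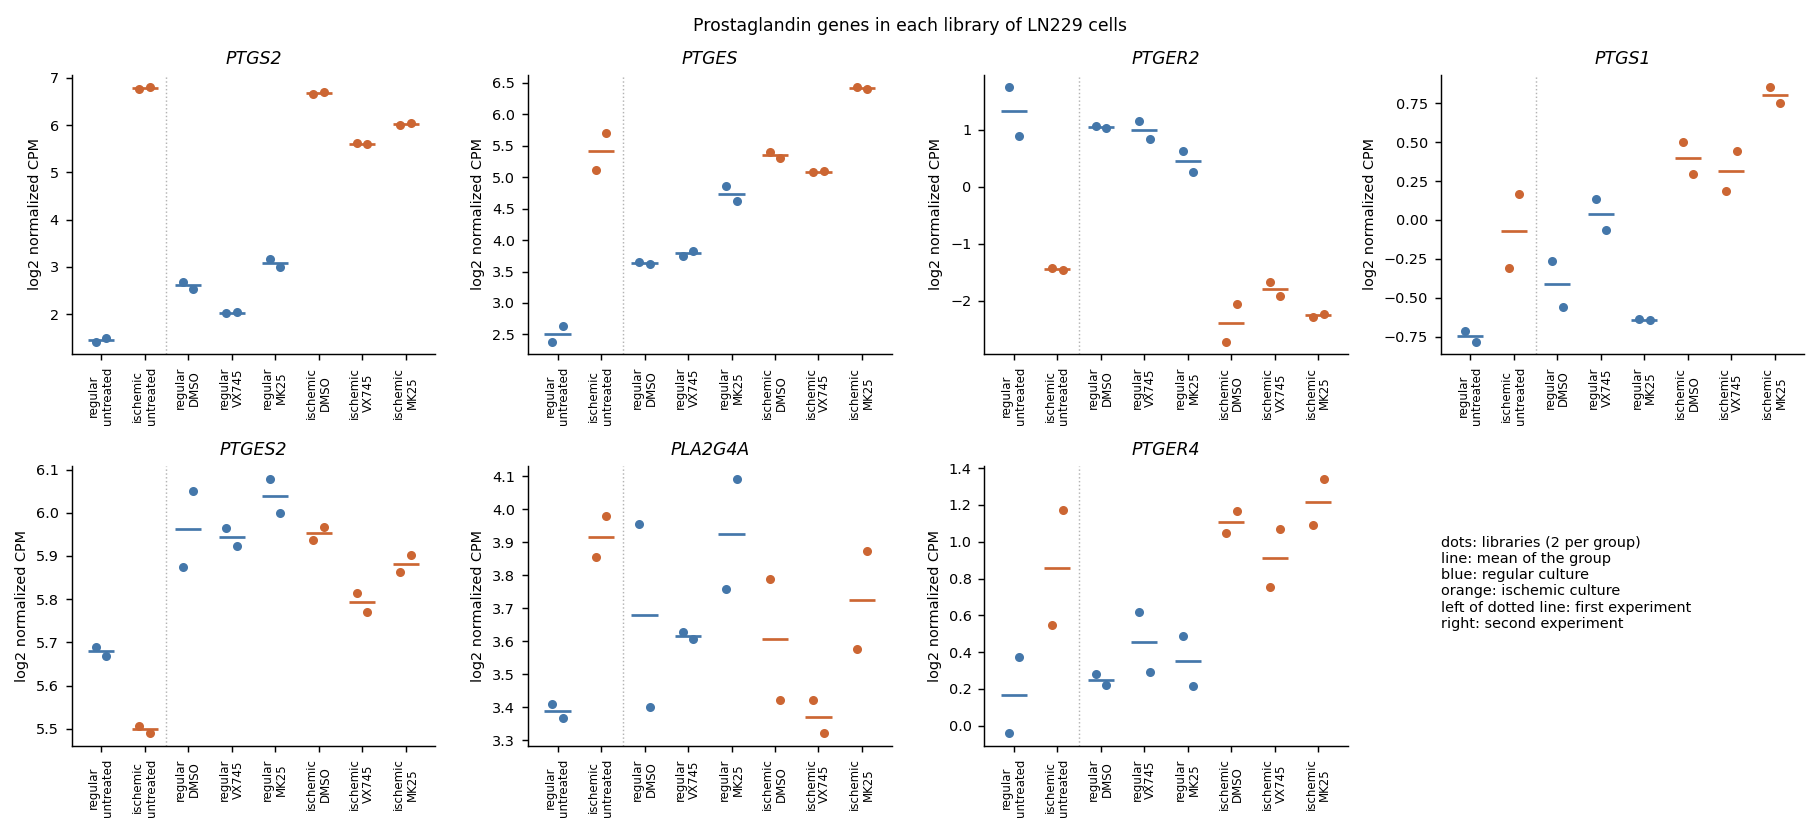
Log2 normalized CPM (y axis) of 7 prostaglandin genes in 16 libraries, grouped on the x axis by culture and treatment (dots, libraries; lines, means of 2). PTGS2 and PTGES are higher in every ischemic library than in any regular library of the same experiment, PTGER2 is lower, and the y axes differ between genes.

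PTGER2 rested on few reads. The regular libraries held 81 and 50 reads of it and the ischemic libraries 8 and 6. Scaled to library size, regular cells had 8.66 times the reads of ischemic cells, with a 95% interval of 4.98 to 16.3 that covers counting error only (exact binomial). With a pseudocount of 1 CPM, which is near the level of the gene itself, the log2 fold change of PTGER2 shrank to −1.42 (limma adjusted p = 2.84e-05). A gene this low in 1 culture can enter such a table through the other culture alone, so its count among the genes that changed is a description.

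The other 4 genes did not meet both parts of the call (limma adjusted p below 0.05, with a change of 2-fold or more). PLA2G4A, the cytosolic phospholipase A2 that releases arachidonic acid, read 3.41 and 3.37 in regular and 3.85 and 3.98 in ischemic libraries, a log2 fold change of 0.53 (SE 0.11, limma adjusted p = 0.00112) below the fold threshold. PTGES2, a constitutive synthase, read 5.69 and 5.67 against 5.51 and 5.49, which is a difference of −0.18 on the log2 scale (95% interval −0.34 to −0.02, limma adjusted p = 0.0474). PTGS1, the housekeeping cyclooxygenase, was near the low end of the table with 13 and 14 reads in regular and 20 and 22 in ischemic libraries, and its log2 fold change of 0.68 had a 95% interval of −0.09 to 1.44 (limma adjusted p = 0.105). PTGER4, which encodes the EP4 receptor, read −0.04 and 0.37 against 0.54 and 1.17 (log2 fold change 0.69, limma adjusted p = 0.0544). Without ischemic replicate 1 the value for PTGER4 was 1.01 (limma adjusted p = 0.0035), past both thresholds. In all, 3 of 7 genes were called, 2 higher and 1 lower, where 20.4% of all genes were called, 11.3% higher and 9.1% lower. The libraries of the 2 cultures did not overlap for any of the 7, as for 85.2% of all genes.

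The same contrast in the second experiment, between DMSO-treated cells, called the same 3 genes in the same directions. PTGS2 read 2.67 and 2.54 in regular and 6.65 and 6.71 in ischemic DMSO libraries, a log2 fold change of 4.08 (SE 0.08, 16.9-fold, limma adjusted p = 3.94e-17). PTGES read 3.64 and 3.62 against 5.41 and 5.30, a log2 fold change of 1.72 (SE 0.08, 3.30-fold, limma adjusted p = 4.37e-12). In both genes the ischemic values were near those of the first experiment and the regular values were higher than there. The tables were normalized separately, so the size of the response was not compared between experiments. PTGER2 fell from 1.07 and 1.04 to −2.71 and −2.05, on 64 and 49 reads in regular and 2 and 5 reads in ischemic libraries. Its log2 fold change was −3.44 (SE 0.38, limma adjusted p = 3.73e-07), it was −1.42 with a pseudocount of 1 CPM, and the ratio of scaled reads was 15.5 (exact binomial 95% interval 7.29 to 39.5, counting error only). The first ischemic library lay under the floor of 3 reads. Across all treatments PTGER2 held 26 to 81 reads in regular and 2 to 8 reads in ischemic libraries, which do not overlap.

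Both low genes that missed the call in untreated cells were again higher under ischemia with DMSO, by less than the fold threshold of 2. PTGER4 read 0.28 and 0.22 in regular and 1.05 and 1.17 in ischemic libraries, a log2 fold change of 0.86 (95% interval 0.35 to 1.36, limma adjusted p = 0.00416). PTGS1 read −0.26 and −0.56 against 0.50 and 0.30, a log2 fold change of 0.81 (95% interval 0.21 to 1.41, limma adjusted p = 0.0173). PLA2G4A did not repeat its difference, with overlapping libraries (3.96 and 3.40 against 3.79 and 3.42) and a 95% interval of −0.42 to 0.27. PTGES2 overlapped as well, with an interval of −0.15 to 0.13. Here 3 of 7 genes were called beside 17.1% of all genes, 9.03% higher and 8.11% lower, and 5 of 7 did not overlap, beside 83.3% of all genes. GENCODE places PACERR, a long noncoding RNA, on the opposite strand over 322 bases of PTGS2, and TTC33 over 13821 bases of PTGER4. The library kit does not mark strand, so reads from those stretches cannot be told apart.

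**Figure D2:**
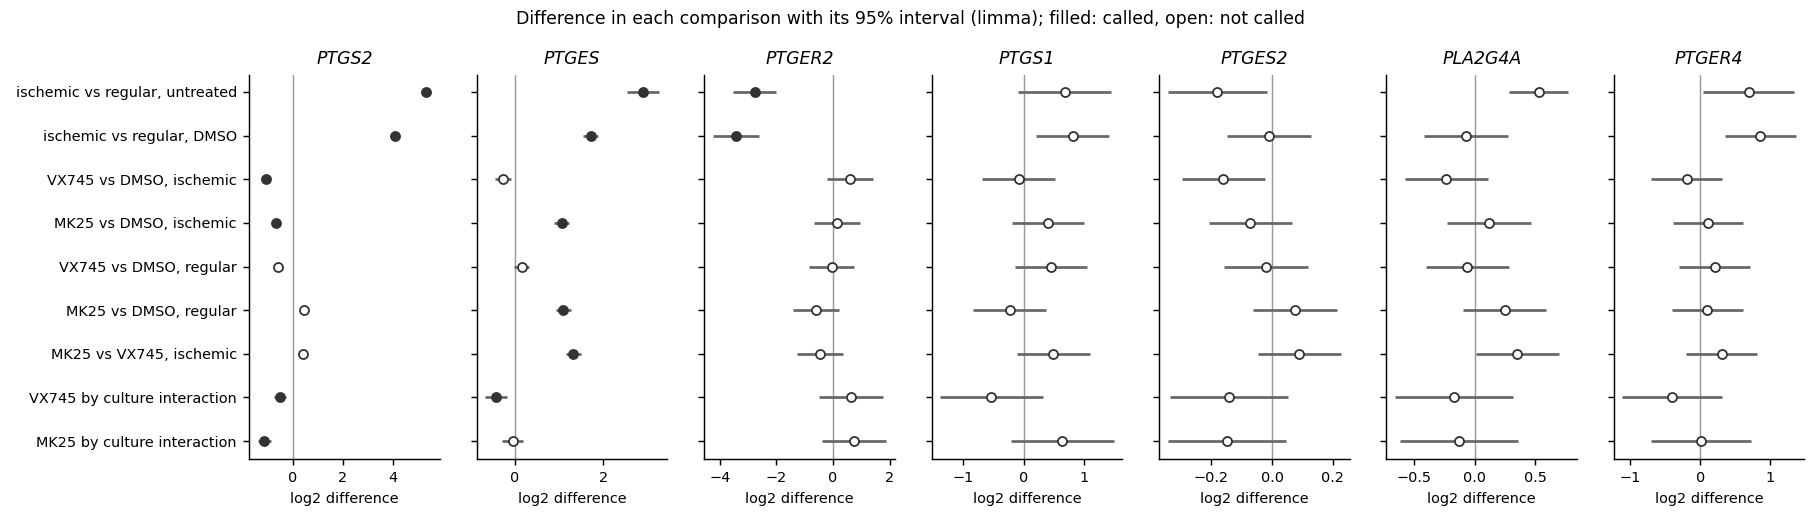
Log2 differences (x axis) of 7 genes in 9 comparisons (y axis), with 95% intervals from limma. Filled points passed the adjusted p and fold thresholds of their comparison, and the interaction points give the inhibitor effect in ischemic minus that in regular culture.

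Levels were set side by side per length, as CPM per kilobase of the canonical transcript. In untreated regular cells the constitutive synthase PTGES2 led with a mean log2 CPM per kilobase of 5.00 ± 0.01 (SD, n = 2), followed by PLA2G4A (1.85 ± 0.03) and PTGES (1.68 ± 0.17), whose spreads nearly meet. PTGER2 (−0.02 ± 0.62) and PTGS2 (−0.76 ± 0.06) came next, and the wide spread of PTGER2 leaves their order unsettled. PTGER4 (−1.72 ± 0.31) and PTGS1 (−3.29 ± 0.05) were lowest. In untreated ischemic cells PTGS2 (4.61 ± 0.02) and PTGES (4.60 ± 0.41) stood beside PTGES2 (4.82 ± 0.01), and PTGES cannot be ranked against either. With DMSO in ischemic culture PTGES2 (5.27 ± 0.02) was above PTGES (4.54 ± 0.07) and PTGS2 (4.51 ± 0.04), and these last did not differ beyond their spread. With MK25 in ischemic culture PTGES (5.60 ± 0.03) was above PTGES2 (5.20 ± 0.03) and PTGS2 (3.84 ± 0.03). PTGS1 stayed between −3.29 and −1.58 in the means of all groups, so the cyclooxygenase reads of ischemic cells were nearly all PTGS2. PTGES3, another prostaglandin E2 synthase of the wider list, was above all 7 genes in every group. Its means were 7.64 ± 0.16 in untreated regular, 7.42 ± 0.09 in untreated ischemic and 6.73 ± 0.14 in ischemic MK25 cells.

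**Figure D3:**
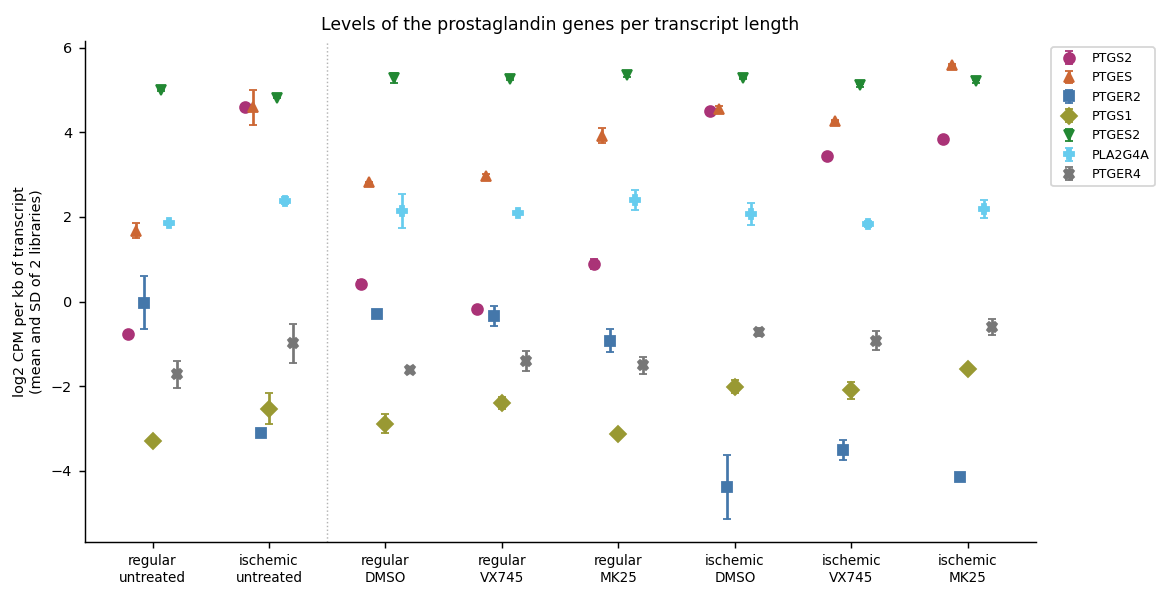
Mean log2 CPM per kilobase of transcript (y axis, bars are the SD of 2 libraries) of 7 genes in 8 groups (x axis, first experiment left of the dotted line). In untreated cells PTGS2 goes from −0.76 in regular to 4.61 in ischemic culture, near PTGES2 at 4.82, but it is lower with ischemic MK25 (3.84) and VX745 (3.43), and PTGER2 is the lowest of the 7 in all 4 ischemic groups.

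In the wider list, 8 of 36 genes were called between untreated cultures (5 higher, 3 lower, 22.2%, against 20.4% of all genes), and the median log2 fold change was −0.14 against −0.01 over all genes. With DMSO it was 9 of 36 (5 higher, 4 lower, 25% against 17.1% of all genes), with a median of −0.06 against −0.01. Among 10 genes of arachidonate release, the phospholipases PLA2G4C and PLA2G6 were higher and ABHD6, a monoacylglycerol hydrolase, was lower in both experiments. PLA2G6 had log2 fold changes of 1.47 and 1.25 (untreated, then DMSO), PLA2G4C of 1.10 and 1.10, and ABHD6 of −1.77 and −1.42. PLA2G4C is a low gene whose call was lost without regular untreated replicate 2 (0.93), without regular DMSO replicate 1 (0.67) and without ischemic DMSO replicate 2 (0.99). None of the 3 analysed genes of inactivation was called. In the lipoxygenase branch ALOXE3 was higher (2.11 and 2.98, the first reduced to 0.94 and uncalled with a pseudocount of 1 CPM) and ALOX12 lower (−1.06 and −1.68). ALOXE3 was low in regular culture, at means of 0.087 (untreated) and 0.105 (DMSO) CPM per kilobase. The SD of its log2 CPM per kilobase with regular DMSO was 1.17. ALOX12 lost its call in untreated cells without ischemic replicate 2 (−0.75) or regular replicate 2 (−0.85). MBOAT7, which returns arachidonate to phospholipid, was called lower with DMSO alone (−1.01), on regular libraries at 0.76 and 2.81, and without regular DMSO replicate 2 its value was 0.012.

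**Figure D4:**
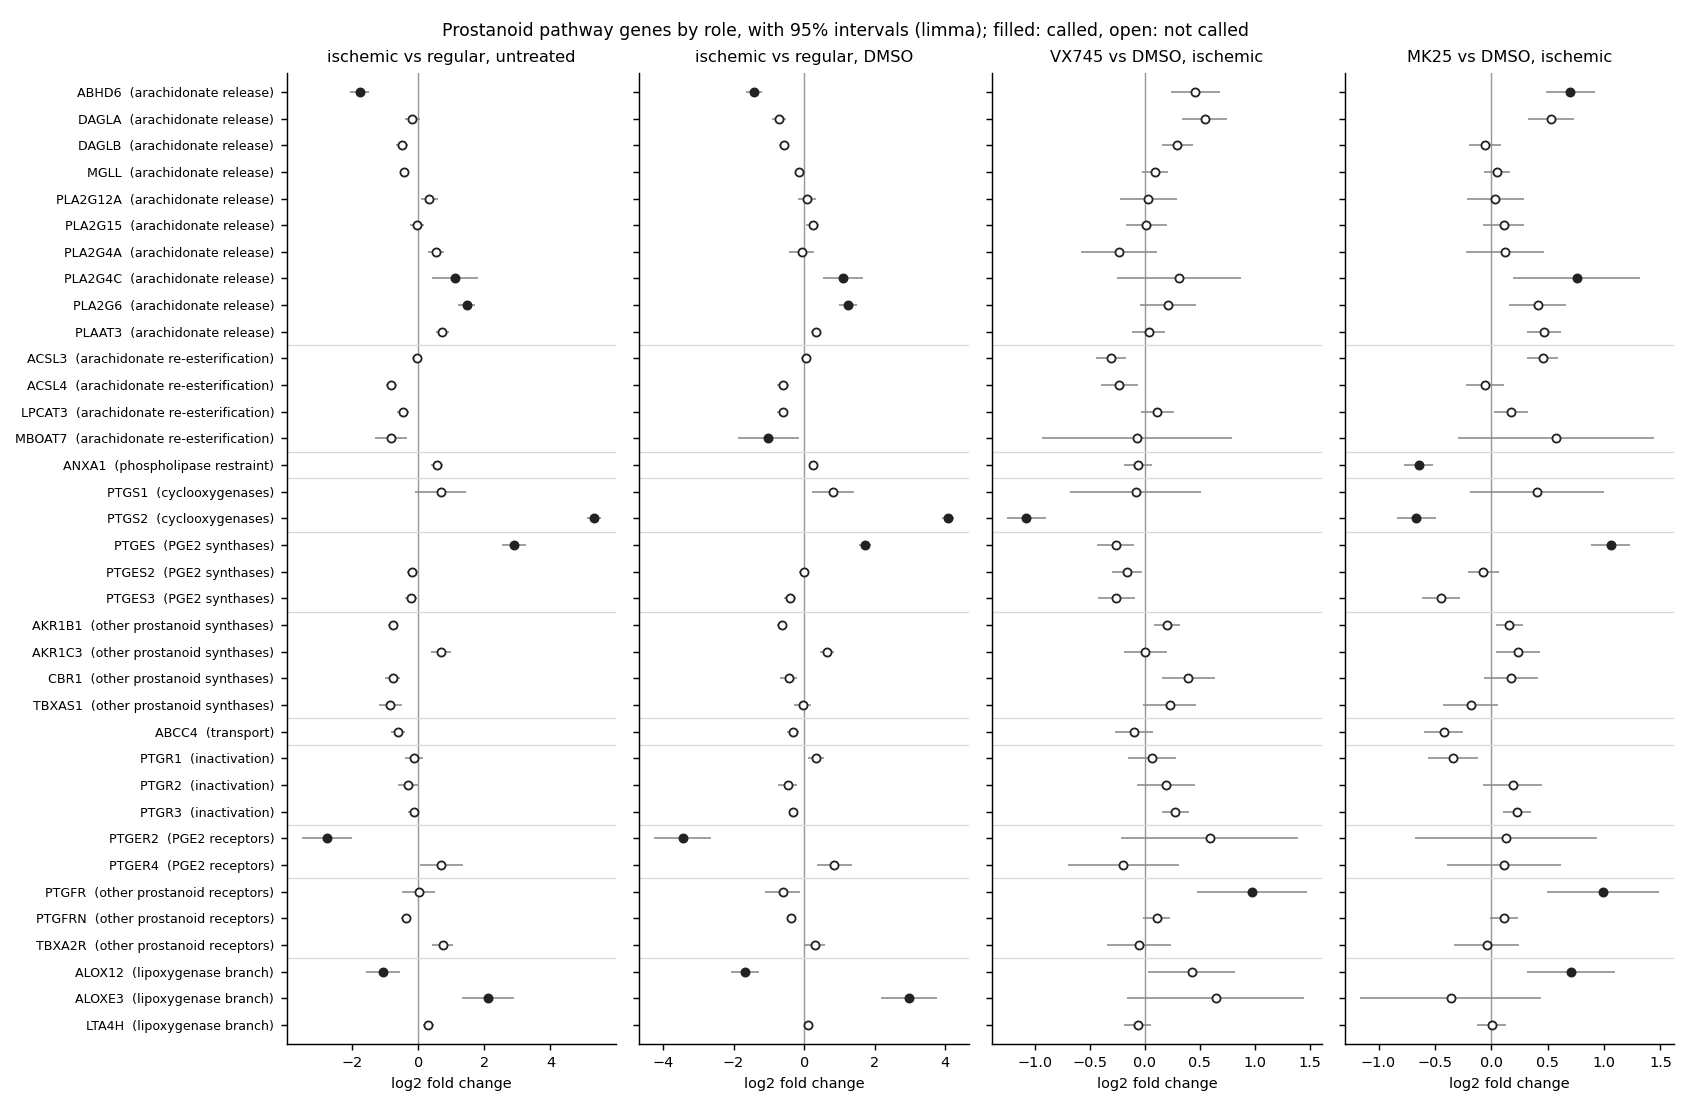
Log2 fold changes with 95% intervals (x axis, scales differ) of 36 prostanoid pathway genes, ordered by role on the y axis, in 4 comparisons. Under ischemia PTGS2 lies farthest right (5.32 and 4.08) and PTGER2 farthest left (−2.76 and −3.44), with PTGES at 2.90 and 1.72. ALOXE3, a gene low in regular culture, is at 2.11 and 2.98.

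VX745 lowered PTGS2 in ischemic cells. PTGS2 read 5.62 and 5.59 in the ischemic VX745 libraries against 6.65 and 6.71 with DMSO, without overlap and with replicates closer together than 0.1. The log2 fold change was −1.07 (SE 0.08, 2.11-fold lower, limma adjusted p = 2.03e-07), and ranged from −1.10 to −1.0 over the alternatives. PTGS2 was the 1 gene of 7 called, beside 5.26% of all genes (4.35% higher and 0.906% lower). Groups did not overlap for 5 of the 7, and for 70.1% of all genes. PTGES read 5.08 and 5.10 against 5.41 and 5.30, and its difference of −0.26 (SE 0.08, limma adjusted p = 0.0209) was under the fold threshold of 1.5. For PTGES2 the interval was −0.30 to −0.02 (limma adjusted p = 0.0726), and for PLA2G4A it was −0.58 to 0.11. PTGS1, PTGER2 and PTGER4 had intervals that held 0, and the widest, of PTGER2 on 2 to 8 reads, ran from −0.22 to 1.40. Ischemic cells with VX745 still held far more PTGS2 than any regular library of that experiment (5.59 or more, against 3.16 or less).

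In regular culture no gene of the 7 was called with VX745, where limma called 0.0998% of all genes (0.0642% higher and 0.0357% lower). Groups did not overlap for 4 of 7, and for 41.9% of all genes. By limma 1 gene, PTGS2, had an unadjusted p under 0.05, and voom on the recovered reads also called 0 of 7. PTGS2 read 2.02 and 2.04 with VX745 and 2.67 and 2.54 with DMSO, a log2 fold change of −0.58 (SE 0.08, 1.49-fold, limma adjusted p = 0.00422) that sat just under the fold threshold of 1.5. Without regular DMSO replicate 2 it was −0.64 (limma adjusted p = 0.0144) and called. PTGES read 3.75 and 3.82 against 3.64 and 3.62 (95% interval −0.01 to 0.33, limma adjusted p = 0.381).

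Tested directly, the effect of VX745 on PTGS2 was more negative in ischemic than in regular culture, by −0.50 on the log2 scale (SE 0.12, limma adjusted p = 0.0124). PTGES differed likewise by −0.42 (SE 0.11, limma adjusted p = 0.025). These 2 of 7 genes stand beside 11.8% of all genes called for this interaction (5.78% higher and 6% lower). Both calls were fragile. For PTGS2 the adjusted p was 0.0595 with voom, 0.0518 without ischemic VX745 replicate 1 and 0.0575 without ischemic VX745 replicate 2. For PTGES it was 0.0745 without a variance trend, 0.106 without ischemic DMSO replicate 1, 0.0953 and 0.0713 without ischemic VX745 replicate 1 or 2, 0.0671 without regular DMSO replicate 2 and 0.0747 without regular VX745 replicate 2.

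MK25 moved PTGS2 and PTGES in opposite directions in ischemic cells. PTGS2 read 6.0 and 6.03 against 6.65 and 6.71 with DMSO, a log2 fold change of −0.66 (SE 0.08, 1.59-fold lower, limma adjusted p = 9.72e-06), which a fold threshold of 2 would not pass. PTGES read 6.43 and 6.39 against 5.41 and 5.30, a log2 fold change of 1.06 (SE 0.08, 2.08-fold higher, limma adjusted p = 4.63e-08). These 2 genes of 7 were called beside 9.67% of all genes (7.02% higher and 2.65% lower), and 4 of 7 did not overlap, PTGS2 and PTGES among them, beside 72.2% of all genes. Intervals of the other 5 genes held 0, from −0.21 to 0.07 for PTGES2 to −0.68 to 0.94 for PTGER2. The DMSO libraries are shared by all contrasts against DMSO in a culture, so the 2 inhibitors' values are not independent of each other or of the ischemia contrast.

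In regular culture MK25 raised PTGES by about as much. PTGES read 4.86 and 4.61 with MK25 and 3.64 and 3.62 with DMSO, a log2 fold change of 1.10 (SE 0.08, 2.15-fold, limma adjusted p = 3.97e-08). The difference between the cultures was −0.04, with a 95% interval of −0.29 to 0.20 (limma adjusted p = 0.815). PTGS2 read 3.16 and 2.99 against 2.67 and 2.54, a log2 fold change of 0.47 (SE 0.08, limma adjusted p = 0.0012) in the direction opposite to ischemic culture and under the fold threshold. PTGES was the 1 gene of 7 called, beside 2.49% of all genes (1.88% higher and 0.606% lower), and 4 of 7 did not overlap, beside 51.4% of all genes. PTGER2 read 0.63 and 0.27 against 1.07 and 1.04, a difference of −0.61 with an interval of −1.41 to 0.20.

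The interaction of MK25 with culture was large for PTGS2, at −1.13 on the log2 scale (SE 0.12, limma adjusted p = 4.49e-06). It stayed past the threshold in every alternative and with each library left out (adjusted p up to 0.00105). PTGS2 was the 1 gene of 7 called, where 24.4% of all genes were called for this interaction (10.5% higher and 13.9% lower). PTGS1 had an estimate of 0.64 with an interval of −0.21 to 1.48.

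**Figure D5:**
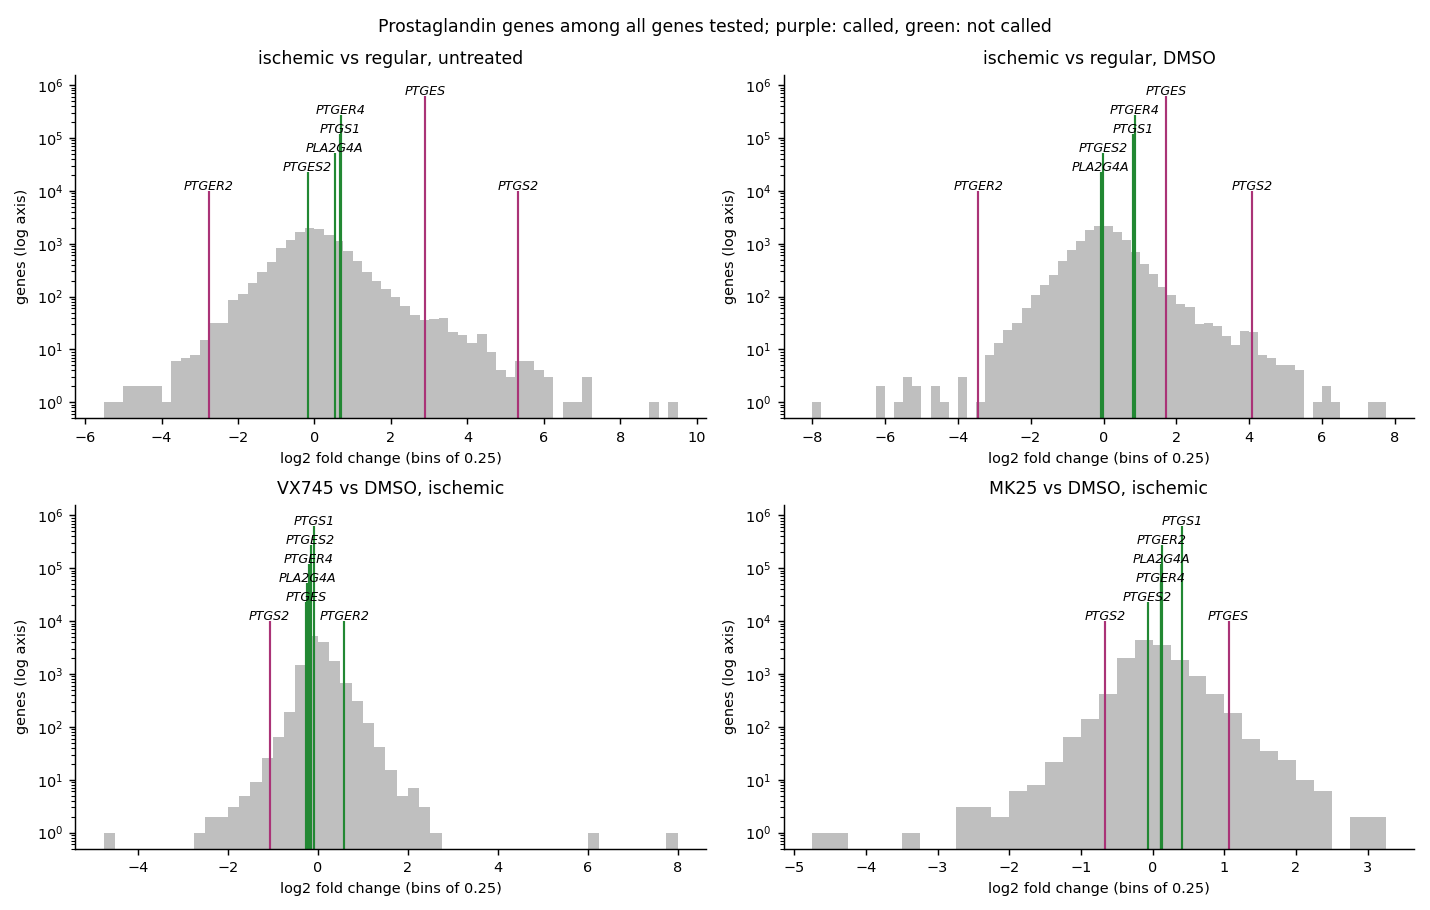
Number of genes (y axis, log scale) in bins of the log2 fold change (x axis) in 4 comparisons, with the 7 prostaglandin genes as vertical lines whose height only separates the names. PTGS2 lies far in the right tail under ischemia and in the left tail with VX745, and PTGES lies in the right tail with MK25.

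Set against each other in ischemic culture, MK25 and VX745 differed at PTGES, by 1.32 on the log2 scale (SE 0.08, 2.50-fold, higher with MK25, limma adjusted p = 4.21e-09). PTGS2 was also higher with MK25 than with VX745, by 0.41 (SE 0.08, limma adjusted p = 0.00197), under the fold threshold of 1.5. PLA2G4A read 3.58 and 3.87 with MK25 against 3.42 and 3.32, a difference of 0.35 (95% interval 0.01 to 0.70, limma adjusted p = 0.153). PTGES was the 1 gene of 7 called, beside 3.96% of all genes (1.75% higher and 2.2% lower with MK25), and all 7 had groups apart, beside 63% of all genes. The compounds were listed at different concentrations, so a difference in dose and a difference in target cannot be told apart. In the second experiment the order of PTGS2 was ischemic DMSO, ischemic MK25, ischemic VX745, regular MK25, regular DMSO and regular VX745, with no overlap between neighbours. For PTGES the order was ischemic MK25, ischemic DMSO, ischemic VX745, regular MK25, regular VX745 and regular DMSO, and the 2 lowest groups did not differ by the test.

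Other genes of the wider list passed with an inhibitor as well, more with MK25 than with VX745. In ischemic culture VX745 called 2 of 36 (5.56%, against 5.26% of all genes), PTGS2 and the prostaglandin F receptor PTGFR, which was higher by 0.97 (limma adjusted p = 0.00542). PTGFR lost this call without ischemic DMSO replicate 2 (0.77) or ischemic VX745 replicate 2 (0.66). MK25 called 7 of 36 (19.4%, against 9.67% of all genes), 5 higher and 2 lower, and 3 of 36 under quantile normalization. Higher beside PTGES were PTGFR (0.99), PLA2G4C (0.76), ALOX12 (0.71) and ABHD6 (0.70). Lower beside PTGS2 was ANXA1 (−0.65, limma adjusted p = 4.04e-07), an annexin known to restrain phospholipase A2. PLA2G4C lost its call when any 1 of the 4 libraries compared was left out (0.64 to 0.87), and ALOX12 without ischemic DMSO replicate 2 (0.49). In regular culture VX745 called 0 of 36 by limma and 0 of 36 by voom, with 9 of 36 at an unadjusted limma p under 0.05. The share of all genes at that unadjusted p is not given here, so the 9 are a description. MK25 called 2 of 36 there (5.56%, against 2.49% of all genes), PTGES and AKR1C3, a reductase that makes prostaglandin F, which was higher by 0.64 (limma adjusted p = 0.000186) and lost its call without regular MK25 replicate 2 (0.55). Between MK25 and VX745 in ischemic culture 3 of 36 were called (8.33%, against 3.96% of all genes), PTGES, ACSL3 (0.76) and ANXA1 (−0.59). ANXA1 fell under the fold threshold without ischemic MK25 replicate 2 (−0.58) or ischemic VX745 replicate 2 (−0.55).

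The genes whose profile was most like those of PTGS2 and PTGES were taken from 10052 genes of both tables with a mean log2 value of 3 or more in the second. Likeness was the root mean square difference of group means over the 8 groups, each profile centred within its experiment, so the points share libraries and the 2 measures are descriptions. The 5 nearest to PTGS2 were VEGFA (0.249), DDIT4 (0.293), FKBP9P1 (0.335), HK2 (0.358) and TRIB3 (0.371). Likeness over the 8 groups is not likeness of the MK25 response. In ischemic culture PTGS2 had means of 6.68 with DMSO and 6.02 with MK25. Centred means in the same order were 1.92 and 1.80 for VEGFA, 2.26 and 1.90 for DDIT4, and 2.03 and 2.27 for FKBP9P1. They were 1.98 and 1.81 for HK2, and 2.06 and 1.68 for TRIB3. FKBP9P1 is named as a pseudogene, and its reads may be shared with its parent gene. The 5 nearest to PTGES were NFATC4 (0.247), GOLGA7B (0.276), KLHL24 (0.277), SLC6A8 (0.287) and C8orf58 (0.306).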

How the data were processed

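RNA sequencing of LN229 cells was analysed in 16 libraries (8 groups of 2), made with a SMART-Seq mRNA kit that does not mark strand. Per the labels, the authors aligned reads with HISAT2 to GRCh38, counted them per Entrez gene and used edgeR. The deposited values are log2 normalized CPM, in 1 table per experiment, with an offset of about 2 reads. The tables were normalized separately and were tested separately. Genes were matched to symbols through RefSeq. The members and lists were chosen with earlier results of these data known, and all members, and pathway genes that were called, are named.

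Differences were tested with limma 3.58.1 in R 4.3.3 (group means, moderated variance with a trend, two-sided), with Benjamini-Hochberg adjustment over all genes of a table. Genes were called at an adjusted p under 0.05 and a change of 2-fold (ischemia) or 1.5-fold (inhibitors), and interactions at any size. The second experiment was fitted on all 12 libraries. The script was tested on simulated data. Unlogged values were whole multiples of 1 read in 100.0% of those tested (within 0.05 read), so reads, floors (3 reads) and exact intervals could be given, which cover counting error only, since the reads carry no molecular identifiers. With voom on these reads 2816, 2438, 783 and 1462 genes were called for ischemia (untreated, then DMSO) and for VX745 and MK25 in ischemic culture. Alternatives covered normalization, pseudocount, filter, thresholds, voom, a replicate block and each library left out. Sequences came from RefSeq (GRCh38.p14) and GENCODE v44.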

Additional observations from a re-analysis of the deposited data

Results flagged for a closer look

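The effect of an inhibitor differed between ischemic and regular culture, by the interaction term itself, for 5 of 36 pathway genes with VX745 (13.9%, beside 11.8% of all genes) and 6 of 36 with MK25 (16.7%, beside 24.4% of all genes). Values are the log2 effect in ischemic minus that in regular culture, with limma adjusted p over all genes, and the effects of the 2 inhibitors share their DMSO libraries.

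With VX745, PTGS2 (−0.50, adjusted p = 0.0124 from limma) and PTGES (−0.42, adjusted p = 0.025 from limma) were more negative in ischemic culture. DAGLA, a diacylglycerol lipase, differed by 0.76 (adjusted p = 0.00263 from limma). ABHD6 differed by 0.47 (adjusted p = 0.0456 from limma) and PTGR3 by 0.28 (adjusted p = 0.0331 from limma). The calls of ABHD6 and PTGR3 did not survive most omissions of a single library, with values of 0.35 to 0.56 for ABHD6 and 0.24 to 0.31 for PTGR3 where the call was lost.

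With MK25, PTGS2 differed by −1.13 (adjusted p = 4.49e-06 from limma) and ANXA1 by −0.81 (adjusted p = 5.22e-06 from limma), and both remained past the threshold with every library left out in turn. DAGLA differed by 0.73 (adjusted p = 0.00101 from limma) and did so as well. ABHD6 differed by 0.48 (adjusted p = 0.025 from limma), AKR1C3 by −0.40 (adjusted p = 0.0325 from limma) and PTGR1 by −0.53 (adjusted p = 0.0146 from limma). ABHD6 and AKR1C3 lost the call in 6 omissions each, and PTGR1 without ischemic MK25 replicate 2 (−0.48) or regular DMSO replicate 2 (−0.45).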

How the results depend on the processing

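Of 956 values of the 7 prostaglandin genes under alternative settings, 899 had the same direction and call, 34 uncalled values changed sign, 10 lost and 13 gained a call, and 0 called values reversed. Without a fold threshold 5 of the 7 genes were called for ischemia in each experiment (untreated and DMSO), 2 for VX745 in ischemic culture, 1 for VX745 in regular culture, and 2 each for MK25 in regular culture and MK25 against VX745. A 1.5-fold threshold gave 5 for ischemia with DMSO, and a 2-fold threshold gave 1 for MK25 in ischemic culture. Of 14024 genes these thresholds called 5043 and 384. Without a variance trend the interactions gave 1 (VX745) and 2 (MK25), and voom gave 1 for VX745. Leaving out single libraries gave 0 to 2 genes for the VX745 interaction and 0 to 1 for VX745 in regular culture.

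Of the 36 pathway genes, those called without a fold threshold were 27 and 29 for ischemia (untreated and DMSO), 12 and 1 for VX745 (ischemic and regular), 17 and 6 for MK25 (ischemic and regular) and 9 for MK25 against VX745. A 1.5-fold threshold gave 17 for ischemia in each experiment, and a 2-fold threshold gave 1 for VX745 in ischemic culture, 1 each for MK25 in both cultures and 1 for MK25 against VX745. For untreated ischemia 5 were called with a mean of at least 1 CPM and 5 with log2(CPM + 1), beside 2428 of 13006 and 2038 of 13559 genes. Quantile normalization gave 3 for MK25 in ischemic culture, and fitting only the groups compared gave 5 for MK25 against VX745. Unadjusted p gave 9 (VX745) and 10 (MK25) interactions, and VX745 interactions were 2 without a trend and 3 with voom. Leaving out single libraries gave 1 to 7 (VX745) and 3 to 9 (MK25) interactions, 1 to 4 for VX745 in ischemic culture, 0 to 1 for VX745 in regular culture and 1 to 4 for MK25 in regular culture. MBOAT7 in ischemic against regular DMSO cells ranged from −2.04 without regular DMSO replicate 1 to 0.012 without regular DMSO replicate 2, the 1 reversal. The causes of these shifts were not tested.

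Counts over all genes, which set the background shares, moved most for VX745. In regular culture 14 genes were called, against 5 with voom, without a trend or with only the groups compared, 7 with log2(CPM + 1), 240 at an unadjusted p, 47 without a fold threshold, 6 at 2-fold and 7 to 143 with a library left out (143 without regular DMSO replicate 1). Its interaction went from 1653 to 594 without a trend, 1026 with quantile normalization, 3813 unadjusted and as few as 601 without ischemic VX745 replicate 1, and log2(CPM + 1) gave 471 instead of 737 for VX745 in ischemic culture. Without a fold threshold the counts rose from 2763 to 9540 (untreated ischemia), from 2405 to 9759 (DMSO), from 737 to 4051 (VX745, ischemic), from 1356 to 5850 (MK25, ischemic), from 349 to 1712 (MK25, regular) and from 555 to 2580 (MK25 against VX745). A 1.5-fold threshold gave 5620 and 5043 for ischemia, a 2-fold threshold gave 193, 384, 116 and 175 in the last 4 comparisons, and MK25 in regular culture had 559 at an unadjusted p and 546 without regular DMSO replicate 1. Quantile normalization moved the share of calls that were higher from 82.8% to 62.6% (VX745) and from 72.6% to 56.4% (MK25) in ischemic culture, and from 64.3% to 50% for VX745 in regular culture. Correlations of replicate deviations between groups were 0.271 in the first experiment and −0.266 to 0.325 in the second. They do not settle whether replicate numbers pair the samples. With the replicate block, genes called went from 2763 to 2766 (untreated ischemia), from 2405 to 2407 (DMSO), from 737 to 725 (VX745 in ischemic culture) and from 1356 to 1353 (MK25 in ischemic culture). The block changed no call of the 7 genes, and ABHD6 lost its VX745 interaction (limma adjusted p = 0.0511). A crossed pairing, added after seeing the data, gave 855 and 1584 genes for VX745 and MK25 in ischemic culture. PTGER2 and PTGS1 rest on 2 to 81 reads a library, which limits what was detectable.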
